A study of Mus musculus with 21 samples.

Results

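The tanycyte genes are 10 genes known from tanycytes, the glial cells that line the floor of the third ventricle: *Rax*, *Gpr50*, *Lhx2*, *Crym*, *Nes*, *Scn7a*, *Adm*, *Fgf10*, *Cd59a* and *Ptn*. They were picked by symbol, and each had 1 row among the 21654 genes of the deposited table. Gene expression was measured by RNA-seq in punches of the ventral hypothalamus (VH) of male C57BL/6J mice, 12 to 14 weeks old on arrival. Each of the 21 libraries held mRNA of 2 mice pooled, collected at ZT 6 after 3 h of forced wakefulness. RC NoDS mice (5 libraries) ate regular chow (RC) throughout, and HFD NoDS mice (5 libraries) ate a high-fat diet (HFD) throughout. The diet switch (DS) groups spent 8 to 10 weeks on a first diet and 7 days on the other, from chow to fat in RC → HFD (6 libraries) and from fat to chow in HFD → RC (5 libraries). The reads assigned to genes totalled between 16380781 and 16390598 per library, since the authors re-sampled all libraries to a common depth.

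Tanycytes keep their cell bodies in the ventricular wall and send a long process into the arcuate nucleus, the ventromedial nucleus or the median eminence. They touch both cerebrospinal fluid and blood vessels, carry hormones and nutrients between them, convert thyroid hormone, and can act as progenitors of glia and neurons. Because a punch holds many cell types, a lower level of these genes can come, for example, from fewer tanycytes or from less RNA in each. Other cells that express some of these genes, and the exact site of the punch, can also differ between libraries. These sources cannot be told apart in bulk tissue and were not tested.

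All 10 genes were read in every library, and all 10 averaged at least 50 reads, the minimum for the 12768 genes tested. In RPKM (reads scaled to exon length and library total), *Ptn*, a secreted heparin-binding growth factor, had the highest level of the 10, at 49.1, above 90.2% of the genes tested. *Gpr50*, an orphan receptor related to the melatonin receptors, followed at 32. *Rax*, the homeodomain transcription factor that marks tanycytes, stood at 11 on this scale, close to *Crym* at 9.32 and *Lhx2* at 8.97. At the lower end were *Fgf10* at 2.72 and *Adm*, which encodes the vasodilator peptide adrenomedullin, at 2.69, above 17% of the genes tested. Levels per length thus ran from above 17% to above 90.2% of the genes tested, with *Ptn* and *Gpr50* the highest of the 10.

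In the mm9 genome (NCBIM37) the genes lie on 7 chromosomes, *Rax* at chr18:66094293-66098743 and *Gpr50* at chrX:68916842-68922432. Chromosome 2 carries *Lhx2* (chr2:38194801-38225253), *Scn7a* and *Cd59a*, and chromosome 7 carries *Crym* (chr7:127329894-127345625) and *Adm*. The annotation places a gene on the opposite strand across 2 exons of *Rax* (Raxos1), 1 of *Lhx2* (Gm13584) and 3 of *Fgf10* (Gm16263). Libraries were made with a stranded kit (TruSeq Stranded mRNA), but the methods do not state whether reads were counted by strand.

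Of the transcription factors, *Lhx2*, a LIM-homeodomain protein that tanycytes need to differentiate, had 621, 440, 428, 680 and 645 reads in the RC NoDS libraries. After the switch to fat, the RC → HFD libraries ran from 202 over a median of 383 to 459 reads. HFD → RC libraries had 286, 643, 272, 450 and 471 reads, and HFD NoDS libraries 470, 518, 455, 596 and 521. Of the 6 RC → HFD libraries, 5 lay under the lowest RC NoDS library, and the ranges overlapped through the remaining one. *Lhx2* averaged 563 ± 119.5 reads (SD, n = 5) in RC NoDS and 354 ± 95.0 (SD, n = 6) in RC → HFD. Its log2 fold change between them was −0.64 (SE 0.196), which did not pass the test over all genes (edgeR, adjusted p = 0.574, threshold 0.15).

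*Rax* had 421, 299, 243, 447 and 398 reads in RC NoDS. Its RC → HFD libraries ran from 120 over a median of 229 to 408 reads. HFD → RC libraries had 279, 332, 150, 267 and 481 reads and HFD NoDS libraries 316, 205, 378, 390 and 231. The 4 groups overlapped widely, and the single libraries differed up to 4.01-fold. Group means were 362 ± 86.8, 242 ± 108, 302 ± 120.2 and 304 ± 83.9 reads in the order given, and the log2 fold change from RC NoDS to RC → HFD was −0.55 (SE 0.266, edgeR adjusted p = 0.761).

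*Crym* encodes mu-crystallin, which binds thyroid hormone in the cytosol. Its reads were 669, 494, 498, 668 and 609 in RC NoDS and 573, 724, 631, 656 and 563 in HFD NoDS, the groups kept on 1 diet. RC → HFD libraries ran from 205 over a median of 391 to 618, and HFD → RC libraries had 377, 471, 396, 488 and 638. So 5 of 6 RC → HFD libraries and 4 of 5 HFD → RC libraries were under every RC NoDS library, while 1 library of each switched group reached into the range of the unswitched mice. Neither direction of the switch passed the test. *Crym* had a log2 fold change of −0.52 (SE 0.175, edgeR adjusted p = 0.673) from RC NoDS to RC → HFD. From HFD NoDS to HFD → RC it was −0.40 (SE 0.183, edgeR adjusted p = 0.606).

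*Gpr50* showed the same order of switched and unswitched mice. RC NoDS libraries had 2005, 1809, 1541, 1990 and 1745 reads, and HFD NoDS libraries 2000, 1178, 1889, 1959 and 1894. The RC → HFD libraries ran from 909 over a median of 1470.5 to 1888, and HFD → RC libraries had 1345, 1546, 1087, 1817 and 1268. *Gpr50* was the 1 gene of the 10 whose lowest mean, 1413 ± 279.7 reads (SD, n = 5), was in HFD → RC; every group overlapped every other. The log2 fold change was −0.30 (SE 0.147) from RC NoDS to RC → HFD and −0.33 (SE 0.154) from HFD NoDS to HFD → RC, with edgeR adjusted p of 0.761 and 0.617.

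The other 6 genes cover a filament, a channel, a membrane protein and 3 secreted factors. *Nes*, the intermediate filament nestin of neural progenitors, ranged from 306 to 871 reads over the libraries. *Scn7a*, the sodium channel that senses sodium in the fluid around it, ranged from 401 to 1104 reads. *Cd59a*, which blocks the membrane attack complex of complement, ranged from 101 to 317. For these genes the libraries of any 2 diet groups shared part of their range. Among the secreted factors, *Ptn* ranged from 2137 to 3981 reads and *Adm* from 26 to 107, the thinnest count of the 10. *Fgf10*, a growth factor of the fibroblast growth factor family, ranged from 128 to 277 reads. Its RC NoDS libraries (277, 271, 214, 228 and 213 reads) all lay above its HFD → RC libraries (196, 211, 202, 154 and 173 reads), the nearest pair being 213 and 211 reads, with a log2 fold change of −0.34 (SE 0.193, edgeR adjusted p = 0.694). With library complexity, defined below, as a covariate in edgeR, this log2 fold change was −0.029. The share of all genes with 2 diet groups apart in this way was not counted.

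**Figure D1:**
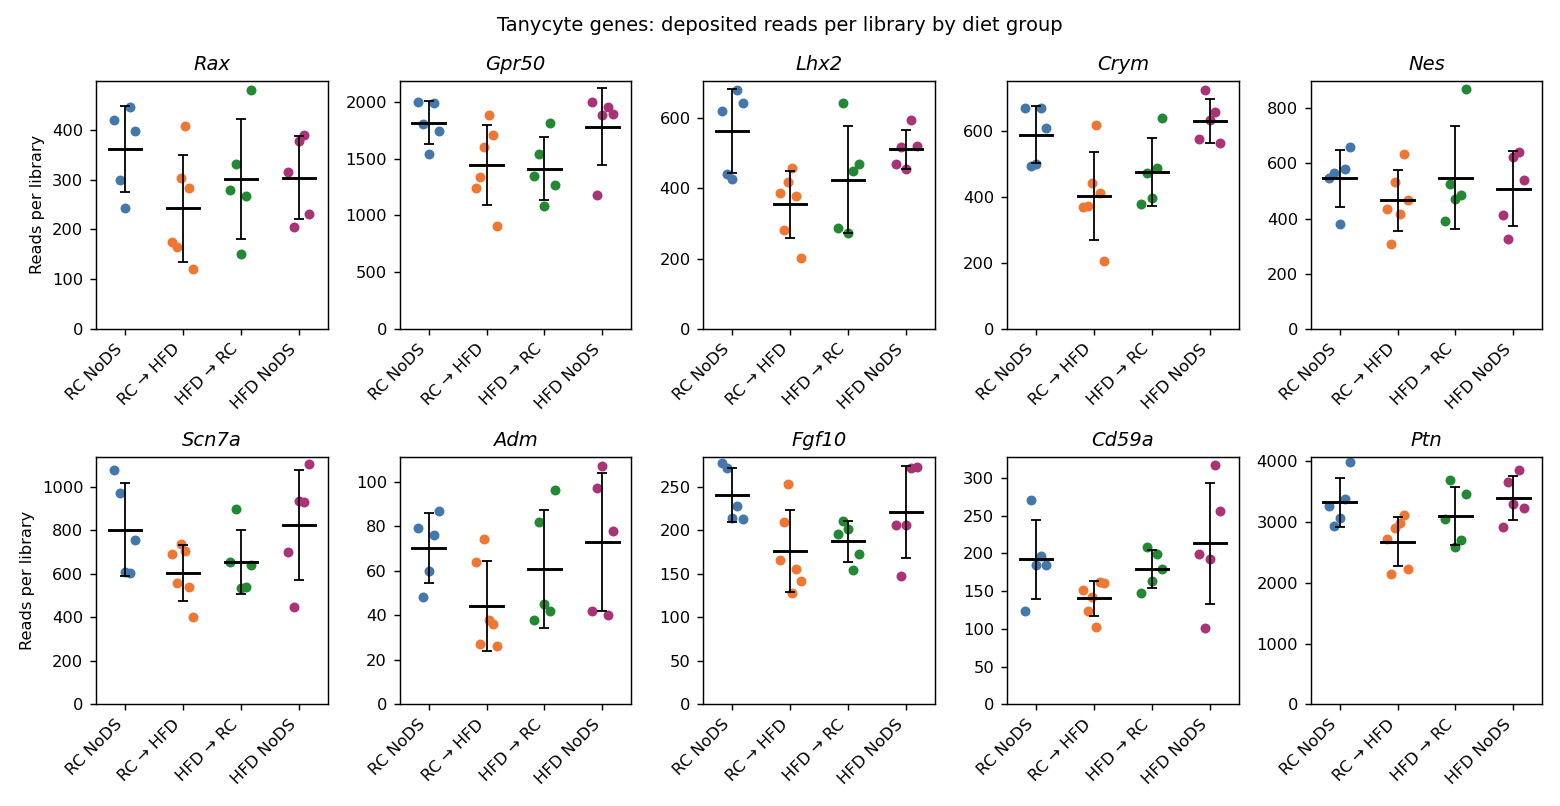
Deposited reads per library (vertical axes) for each of the 10 tanycyte genes in the 4 diet groups. Points are libraries, thick bars are group means and thin bars are 1 SD; the RC → HFD mean is the lowest for 9 of the 10 genes, and its libraries overlap those of other groups.

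Set side by side, the order of the group means was similar for most of the 10 genes. The lowest mean was in RC → HFD for 9 genes and in HFD → RC for 1. Highest means were in HFD NoDS for 5 genes, in RC NoDS for 4 and in HFD → RC for *Nes*. In CPM (reads scaled to the library total times its TMM factor) summed over the 10 genes, RC NoDS libraries had 541, 484, 437, 539 and 561 and HFD NoDS libraries 483, 460.0, 529, 585 and 525. RC → HFD libraries ran from 302 over a median of 421 to 477, and HFD → RC libraries had 414, 529.8, 367, 436 and 503. *Ptn* alone held 40.5% of the reads of the 10 genes, followed by *Gpr50*, so these sums weigh the abundant genes most. The lowest sums were in RC → HFD replicates 12 and 8 and HFD → RC replicate 15, and the highest was in HFD NoDS replicate 23.

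The effect of moving lean mice to fat was read from RC NoDS v RC → HFD. All 10 genes were lower in RC → HFD, with log2 fold changes from −0.64 to −0.20 and a median of −0.43, where the median of all genes tested was −0.00094. *Nes* changed sign with the *Rax* level as a covariate (0.066). None of the 10 passed (edgeR), against 0.0392% of all genes. At an unadjusted p under 0.05 there were 6 (*Rax*, *Gpr50*, *Lhx2*, *Crym*, *Fgf10* and *Ptn*), against 6.51% of all genes, and DESeq2, limma-voom and limma-trend also called 0. All 6 RC → HFD libraries lay under the RC NoDS median for *Lhx2*, *Scn7a*, *Adm*, *Cd59a* and *Ptn*, and 5 of 6 did for the other 5 genes. The share of all genes with such positions, here or for the single genes above, was not counted. The 10 genes also come from the same libraries, so these positions are only a description. Without RC → HFD replicate 12, the library with the fewest reads of 6 genes, the log2 fold changes of *Lhx2*, *Crym* and *Gpr50* were −0.53, −0.39 and −0.20.

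The reverse switch was read from HFD NoDS v HFD → RC. Of the 10 genes 9 were lower in HFD → RC, the exception being *Nes* at 0.12, and the median log2 fold change was −0.25. EdgeR called 0 of the 10, against 0.0705% of all genes, and at an unadjusted p under 0.05 there were 2, *Gpr50* and *Crym*, against 7.93%. DESeq2, limma-voom and limma-trend called 0. *Rax* had a log2 fold change of −0.0049 (SE 0.278), which turned on single libraries: in HFD → RC, leaving out replicate 17 gave −0.23 and leaving out replicate 15 gave 0.16, and 6 of 21 fits with a library left out had the other sign. For *Gpr50* and *Scn7a* all 5 HFD → RC libraries lay under the HFD NoDS median, again a description without the share of all genes. *Nes* stood apart through HFD → RC replicate 17, and without that library its log2 fold change was −0.11; it was also under 0 when HFD NoDS replicate 20 was left out.

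Mice that had stayed on 1 diet were compared in RC NoDS v HFD NoDS. Of the 10 genes 5 were higher and 5 lower, with log2 fold changes from −0.23 (*Rax*) to 0.16 (*Cd59a*) and a median of 0.018. With single libraries left out *Cd59a* ran from −0.019 (HFD NoDS replicate 23) to 0.34 (HFD NoDS replicate 20), and *Gpr50*, *Nes*, *Scn7a*, *Adm* and *Fgf10* also changed sign, so no direction is read from this pair. Leaving out HFD NoDS replicate 20 gave 0.10 for *Gpr50*, 0.032 for *Nes* and 0.0023 for *Fgf10*, and a value under 0 for *Adm*. *Scn7a* was lowest, at −0.069, when HFD NoDS replicate 24 was left out. EdgeR called 0, against 0.0783% of all genes, with 0 at an unadjusted p under 0.05, against 7.41%, and 0 by DESeq2, limma-voom and limma-trend. No difference between weeks on fat and weeks on chow thus passed the test for these genes. The 2 switched groups, RC → HFD v HFD → RC, differ in both the earlier and the current diet. Here 9 of 10 genes were higher in HFD → RC with a median log2 fold change of 0.23, the exception being *Gpr50* at −0.036. With 1 library left out *Gpr50* had the other sign in 4 of 21 fits, up to 0.053 when RC → HFD replicate 10 was left out, and *Scn7a* was −0.032 when HFD → RC replicate 14 was left out. Again edgeR, DESeq2, limma-voom and limma-trend called 0, against 0.00783% of all genes by edgeR, and 0 had an unadjusted p under 0.05, against 5.35%.

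Mice eating the same diet at collection but with a different past give the last 2 pairs. Both eat fat in RC → HFD v HFD NoDS, where all 10 genes were higher in HFD NoDS, by log2 fold changes of 0.11 (*Nes*) to 0.71 (*Adm*), median 0.38, except that *Nes* was −0.06 with the *Rax* level as a covariate. With 1 library left out *Nes* ran from 0.016 (RC → HFD replicate 8) to 0.23 (HFD NoDS replicate 20). EdgeR called 0, against 0.0157% of all genes, and 6 had an unadjusted p under 0.05 (*Lhx2*, *Crym*, *Scn7a*, *Adm*, *Cd59a* and *Ptn*), against 7.49%. Limma-voom and limma-trend called 0 and DESeq2 called 1, *Crym*, at a log2 fold change of 0.64 (SE 0.180, adjusted p = 0.145), for which edgeR gave an adjusted p of 0.432. All 5 HFD NoDS libraries were above the RC → HFD median for *Lhx2*, *Crym*, *Adm* and *Ptn*, again a description without the share of all genes. Both eat chow in RC NoDS v HFD → RC, where 9 of 10 genes were lower in HFD → RC, with a median of −0.25 and *Nes* at 0.032. *Nes* was −0.074 when RC NoDS replicate 3 was left out and −0.19 when HFD → RC replicate 17 was, and *Cd59a* went from −0.072 to 0.078 when RC NoDS replicate 2 was left out. EdgeR called 0, against 0.282% of all genes, 1 (*Gpr50*) had an unadjusted p under 0.05, against 8.10%, and DESeq2, limma-voom and limma-trend called 0.

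**Figure D2:**
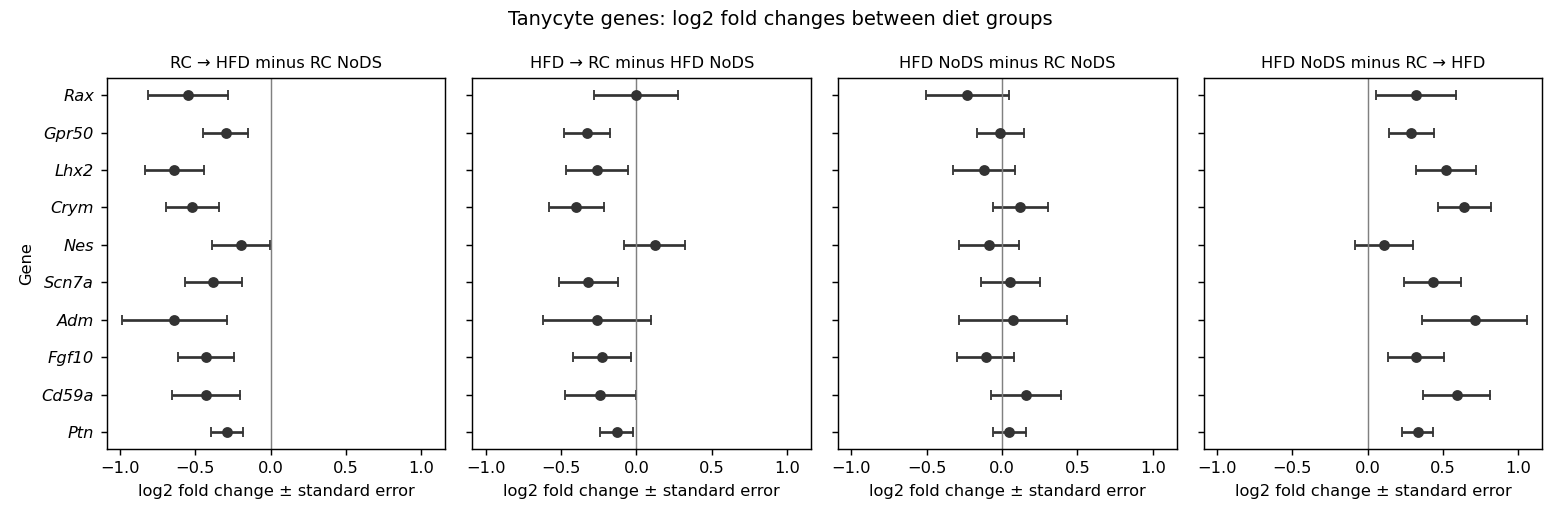
Log2 fold change of each tanycyte gene (horizontal axes, with its standard error as bars) in 4 comparisons of diet groups. All 10 points lie left of 0 from RC NoDS to RC → HFD and right of 0 from RC → HFD to HFD NoDS, while the points between the unswitched groups lie from −0.23 to 0.16.

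The design also allows the current diet, the earlier diet and their interaction to be tested over all 21 libraries. For the current diet (both groups on fat minus both on chow) the median log2 fold change of the 10 genes was −0.10, with 0 called by edgeR, against 0.0470% of all genes, and 0 at an unadjusted p under 0.05, against 5.22%. For the earlier diet the median was 0.078, with 0 called by edgeR, against 0.0705%, and 0 at an unadjusted p under 0.05, against 7.27%. DESeq2, limma-voom and limma-trend called 0 of the 10 in both. Several of these values are near 0 and changed sign with 1 library left out: *Gpr50*, *Crym* and *Scn7a* for the current diet (in 8, 2 and 5 of 21 fits), and *Rax*, *Gpr50*, *Lhx2*, *Nes* and *Fgf10* for the earlier diet (in 7, 4, 1, 1 and 9 of 21 fits). Across all 4 groups edgeR called 0, against 0.149% of all genes, and 4 had an unadjusted p under 0.05 (*Gpr50*, *Lhx2*, *Crym* and *Ptn*), against 7.97%. Limma-voom and limma-trend called 0 there, and DESeq2 called *Crym* (adjusted p = 0.145; edgeR 0.416).

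The interaction sets unswitched against switched mice: it is the difference of HFD NoDS over HFD → RC minus the difference of RC → HFD over RC NoDS, on the log2 scale. All 10 genes had a value above 0, from 0.082 (*Nes*) to 0.93 (*Crym*), and the median was 0.66, against −0.004 over all genes tested, of which 49.4% were above 0. *Nes* did not hold its sign: it was −0.016 when RC → HFD replicate 8 was left out, −0.015 with HFD → RC replicate 13 left out, −0.011 with HFD NoDS replicate 23 left out and −0.20 with the *Rax* level as a covariate, which also took *Gpr50* from 0.63 to 0.37. EdgeR called 0 of the 10, against 0.0313% of all genes, and 6 had an unadjusted p under 0.05 (*Gpr50*, *Lhx2*, *Crym*, *Scn7a*, *Fgf10* and *Ptn*), against 8.84%. The lowest adjusted p was that of *Crym*, 0.239 at a value of 0.93 (SE 0.253). *Lhx2* followed at 0.91 (SE 0.284, edgeR adjusted p = 0.275) and *Gpr50* at 0.63 (SE 0.213, edgeR adjusted p = 0.326).

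Some calls on this interaction turned with the tool or with 1 library. DESeq2 called *Crym* at 0.93 (SE 0.259, adjusted p = 0.0912), and limma-voom and limma-trend called 0. Over the settings other than leaving out a library, the adjusted p of *Crym* ran from 0.0912 to 0.416. With edgeR and without HFD → RC replicate 14, *Lhx2* was called at 1.11 (adjusted p = 0.119). Without HFD NoDS replicate 19 *Crym* was called at 0.96 (adjusted p = 0.149), and without HFD NoDS replicate 20 *Gpr50* at 0.75 (adjusted p = 0.131) and *Scn7a* at 0.86 (adjusted p = 0.144). Over the 21 fits with a library left out, adjusted p ran from 0.149 to 0.494 for *Crym*, 0.119 to 0.527 for *Lhx2*, 0.131 to 0.578 for *Gpr50* and 0.144 to 0.641 for *Scn7a*.

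The libraries also differed in complexity, measured on 3116 weakly expressed genes, those with means of 5 to 50 reads, as the share that a library missed entirely. It ran from 1.12% to 7.22% in RC NoDS, from 2.31% to 22.4% in RC → HFD, from 5.68% to 31.9% in HFD → RC and from 7.7% to 32.9% in HFD NoDS. With this share as a covariate in edgeR, *Crym* was called in the interaction at 1.06 (SE 0.251, adjusted p = 0.140). Of the 10 genes, *Fgf10* was the 1 whose r with the share within groups passed 0.15, against 3.76% of all genes, and its rho did not pass: r = −0.67 (permutation p = 0.00473, adjusted 0.139) and rho = −0.65 (permutation p = 0.00604, adjusted 0.237). Without the 2 libraries farthest from the median of this share, HFD NoDS replicate 20 and HFD → RC replicate 17, its r was −0.59. From RC NoDS to RC → HFD, the covariate brought the log2 fold change of *Fgf10* to −0.25 and that of *Scn7a* to −0.23. From RC NoDS to HFD → RC it brought *Fgf10* to −0.029, *Scn7a* from −0.27 to −0.01, *Rax* from −0.24 to −0.56, *Crym* from −0.29 to −0.49, *Adm* from −0.18 to −0.44 and *Ptn* from −0.079 to −0.20. *Nes* (0.032 to −0.14) and *Cd59a* (−0.072 to 0.084) changed sign there. Between the unswitched groups, RC NoDS v HFD NoDS, 5 of the 10 genes changed sign: *Gpr50* to 0.054, *Crym* from 0.12 to −0.074, *Adm* to −0.15, *Fgf10* from −0.11 to 0.17 and *Ptn* to −0.066. In that pair *Rax* went from −0.23 to −0.48, *Lhx2* to −0.25, *Nes* to −0.22, *Scn7a* to 0.26 and *Cd59a* to 0.28. For the earlier diet 5 genes changed sign: *Rax* from 0.039 to −0.15, *Gpr50* from −0.024 to 0.022, *Lhx2* from 0.07 to −0.032, *Nes* from 0.072 to −0.026 and *Fgf10* from −0.0072 to 0.19. For the current diet *Scn7a* went from −0.029 to 0.02. With the covariate, edgeR called 0 of the 10 in these pairs and for both diets.

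Within diet groups, the genes other than *Ptn* varied more between punches than the median gene. *Rax* had an SD of the log2 level of 0.50 between libraries of a group, above 95.4% of all genes tested, whose median was 0.21. *Adm* followed at 0.45 and *Lhx2* and *Scn7a* at 0.37, and *Ptn* was lowest at 0.20. Against the median of all 21 libraries, which keeps the diets in, RC → HFD replicate 12 lay under it for all 10 genes and had the fewest reads for 6 of them. HFD → RC replicates 13 and 15 also lay under the median for all 10 genes, and RC NoDS replicate 6 and HFD NoDS replicate 21 for 0 of them. The 3 low libraries are thus from switched mice and the other 2 from unswitched mice.

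To compare the genes without the diets, the mean of each group was subtracted from log2 levels and each gene was compared with *Rax* over the 21 libraries. The median r of the other 9 genes with *Rax* was 0.57, against 0.00 over all 12767 genes compared, whose quartiles were −0.20 and 0.19. By r, 4 of the 9 ranked in the top 1% of all genes. None of the 9 passed 0.15 after adjustment over all genes for r, against 0.180% of all genes, or for rho, against 0.211%, in permutation tests within groups. At an unadjusted permutation p of r under 0.05 there were 6 of 9, against 9.50% of all genes.

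*Crym* was the closest of the 9 to *Rax*, at rank 20 with r = 0.76 (permutation p = 0.00045, adjusted 0.163) and rho = 0.69 (permutation p = 0.00198, adjusted 0.23). *Gpr50* had r = 0.72 (permutation p = 0.00128, adjusted 0.214) and rho = 0.68 (permutation p = 0.00471, adjusted 0.304). *Lhx2* had r = 0.72 (permutation p = 0.0015, adjusted 0.215) and rho = 0.75 (permutation p = 0.0005, adjusted 0.163). None of these 3 genes passed the adjustment. *Ptn* had r = 0.66 (permutation p = 0.00559, adjusted 0.308) and rho = 0.65 (permutation p = 0.00581, adjusted 0.322). *Nes* had r = 0.57 (permutation p = 0.0179, adjusted 0.418) and rho = 0.62 (permutation p = 0.00729, adjusted 0.335).

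The 2 libraries farthest from the median of *Rax* were RC → HFD replicate 12 (120 reads) and HFD → RC replicate 15 (150 reads). Without them r was 0.71 for *Crym*, 0.69 for *Nes*, 0.57 for *Gpr50*, 0.55 for *Ptn* and 0.54 for *Lhx2*. For *Scn7a*, r was 0.46 (permutation p = 0.0412, adjusted 0.5) and rho 0.43 (permutation p = 0.068, adjusted 0.6), and r without the 2 libraries was 0.30. The last 3 genes had lower values. *Adm* had r = 0.33 (permutation p = 0.197, adjusted 0.73) and rho = 0.34 (permutation p = 0.178, adjusted 0.737), *Fgf10* r = 0.03 (permutation p = 0.909, adjusted 0.986) and rho = 0.10 (permutation p = 0.689, adjusted 0.958). *Cd59a* had r = 0.01 (permutation p = 0.959, adjusted 0.994) and rho = 0.06 (permutation p = 0.808, adjusted 0.981), and without the 2 libraries r was 0.19 for *Adm*, −0.01 for *Fgf10* and 0.05 for *Cd59a*.

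**Figure D3:**
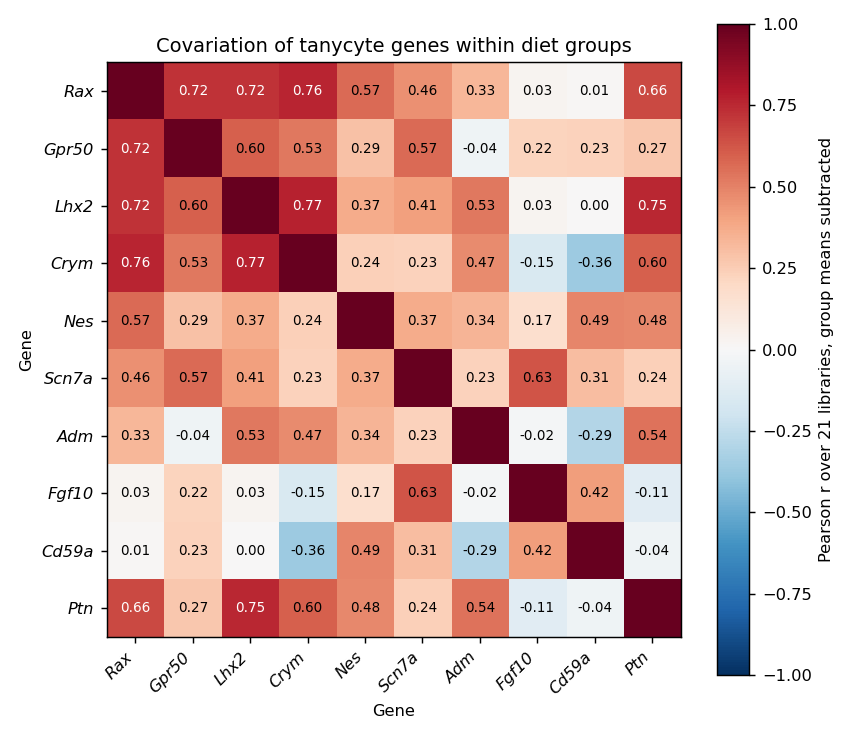
Pearson r between each pair of the 10 tanycyte genes over 21 libraries after each diet group's mean was subtracted from the log2 levels (colour and printed value). *Gpr50*, *Lhx2*, *Crym* and *Ptn* have r of 0.66 to 0.76 with *Rax*, and *Fgf10* and *Cd59a* sit near 0 with *Rax* and *Lhx2*.

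Among all 45 pairs of the 10 genes, given as a description without a test, r had a median of 0.34, was above 0 in 38 pairs and above 0.5 in 14. The highest value was between *Lhx2* and *Crym* (0.77) and the lowest between *Crym* and *Cd59a* (−0.36). *Fgf10* and *Cd59a* were apart from *Rax*, *Lhx2* and *Crym*, and *Fgf10* was closest to *Scn7a* (0.63) and *Cd59a* to *Nes* (0.49). With the *Rax* level as a covariate in edgeR, the log2 fold change from RC NoDS to RC → HFD went from −0.64 to −0.33 for *Lhx2*, from −0.52 to −0.26 for *Crym*, from −0.30 to −0.078 for *Gpr50* and from −0.29 to −0.14 for *Ptn*. For *Adm* it went from −0.64 to −0.40 and for *Scn7a* from −0.38 to −0.20. It was −0.41 for *Fgf10* and −0.43 for *Cd59a*, beside −0.43 for both without the covariate.

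Outside the 10 genes, the gene closest to *Rax* was Col23a1, a membrane collagen also known from tanycytes, at r = 0.88 (permutation p = 4.00e-05, adjusted 0.0798) and rho = 0.85 (permutation p = 7.00e-05, adjusted 0.109). Crabp1, which binds retinoic acid, had r = 0.88 (permutation p = 4.00e-05, adjusted 0.0798) and rho = 0.90 (permutation p = 1e-05, the smallest the permutations can give, adjusted 0.109). Greb1, an estrogen-responsive gene, had r = 0.87 (permutation p = 1e-05, again the smallest possible, adjusted 0.0798) and rho = 0.84 (permutation p = 3.00e-05, adjusted 0.109). Tbx3, a T-box factor of arcuate neurons and tanycytes, had r = 0.85 (permutation p = 3.00e-05, adjusted 0.0798) and rho = 0.86 (permutation p = 5.00e-05, adjusted 0.109). Without the 2 farthest libraries these 4 genes kept r of 0.83, 0.82, 0.78 and 0.75.

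Next in rank by r with *Rax* came S100a6 (0.83), Irs4 (0.82), Sox9 (0.81), Prdx6 (0.81), Pbxip1 (0.81) and 2700081O15Rik (0.81), with permutation adjusted p of r between 0.0798 and 0.14. Their rho passed 0.15 for Irs4, Sox9 and Prdx6 and not for S100a6 and 2700081O15Rik (both 0.152) or Pbxip1 (0.185). Of the 23 genes whose r with *Rax* passed, 17 were positive and 6 negative. Against the mean of the 10 standardised tanycyte genes, given without a test, the closest genes included Col23a1 (r = 0.94), Tbx3 (0.91), Tmem176b (0.88), Prdx6 (0.87), Crabp1 (0.87) and Vat1 (0.86). Kctd14 (0.85), Lman1 (0.84) and 4732456N10Rik (0.83) were also near it.

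**Figure D4:**
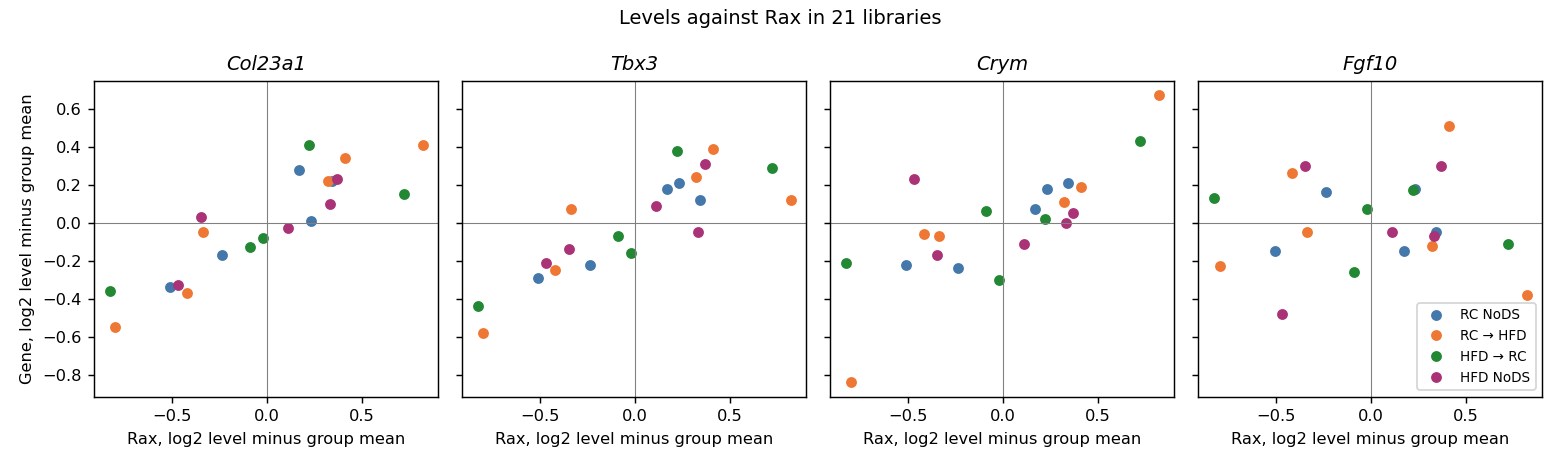
Log2 level minus the diet group's mean for Col23a1, Tbx3, *Crym* and *Fgf10* (vertical axes) against that of *Rax* (horizontal axes) in 21 libraries coloured by group. Col23a1 (r = 0.88), Tbx3 (r = 0.85) and *Crym* (r = 0.76) rise from left to right, and *Fgf10* (r = 0.03) does not.

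Other genes known from tanycytes were followed as a list of 20, of which 19 were tested and Prss56 was absent from the table. None of the 19 was called by edgeR in any of the 10 comparisons. In the interaction 14 of 19 were above 0, against 49.4% of all genes, with a median of 0.37, and 7 had an unadjusted p under 0.05, against 8.84% of all genes. From RC NoDS to RC → HFD their median was −0.18 (4 of 19 higher, 7 at an unadjusted p under 0.05), against 49.8% and 6.51% of all genes. The most abundant were, with their interaction values, Igfbp5 (0.30), Col23a1 (0.84) and Col25a1 (0.16), with edgeR adjusted p of 0.782, 0.196 and 0.825. Over the 19 genes r with *Rax* ran from −0.33 to 0.88, with a median of 0.35. Ciliated ependymal cells line the ventricle beside tanycytes, and *Nes*, *Adm* and *Cd59a* are also known from endothelial cells. Over 12 ependymal genes r with *Rax* ran from −0.59 to 0.40 (median 0.06), and over 10 endothelial genes from −0.47 to 0.11 (median −0.09). These ranges overlap, and the difference between the lists was not tested. The ependymal and endothelial interaction medians were −0.20 and −0.14, with 1 and 0 genes at an unadjusted p under 0.05 and 0 genes called by edgeR in either list in any comparison; the most abundant were Foxj1, Rarres2 and Rsph1, and Flt1, Cldn5 and Ly6c1.

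Genes of the nuclei that tanycytes reach are given as a description, since no test was made of a list. Over 12 arcuate neuron genes r with *Rax* ran from 0.09 (Pomc) to 0.85 (Tbx3), with a median of 0.52. Of the 12, Tbx3 passed for r and rho. Kiss1 passed for r (0.77, permutation p = 0.00027), with an adjusted p just under the threshold, and not for rho (0.72, permutation adjusted p = 0.178). Npy passed for rho (0.80, permutation adjusted p = 0.109) and not for r (0.73, permutation adjusted p = 0.181). Over 7 ventromedial neuron genes r ran from −0.69 to −0.37, with a median of −0.49, beside a median of 0.00 over all genes, and 0 passed (lowest permutation adjusted p of r 0.218, Nkx2-2). EdgeR called 0 of the 7 in any comparison, and the most abundant were Nptx2, Cnr1 and Lmo3. In the interaction the arcuate median was 0.39, with 10 of 12 above 0 and 3 at an unadjusted p under 0.05, and the ventromedial median −0.56, with 1 of 7 above 0 and 5 at an unadjusted p under 0.05, against 49.4% of all genes above 0 and 8.84% at such a p. Summed over the arcuate list, of which Pomc was most abundant, the levels in CPM were 1263, 1034, 1146, 1489 and 1475 in RC NoDS and 1214, 1361, 1280, 1631 and 1232 in HFD NoDS. They ran from 863 over a median of 1246 to 1405 in RC → HFD and were 955, 1536, 1077, 1123 and 1160 in HFD → RC.

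Summed over the ventromedial list, the levels in CPM were 378, 488, 522, 340.3 and 392 in RC NoDS and 526, 565, 402, 337 and 383 in HFD NoDS. They ran from 423 over a median of 532 to 606 in RC → HFD and were 442, 493, 728, 515 and 401 in HFD → RC. Markers of all neurons had a median r with *Rax* of −0.42 over 8 genes, from −0.67 to −0.31, and without the 2 farthest libraries r ran from −0.52 to 0.07. From RC NoDS to RC → HFD, where all 10 tanycyte genes were lower, all 8 were higher, against 49.8% of all genes, and 6 had an unadjusted p under 0.05, against 6.51% (median log2 fold change 0.15). Their sums were 3845 to 4071 in RC NoDS and 4117 to 4867 in RC → HFD. In that pair the ventromedial median was 0.27 (6 of 7 higher, 2 at such a p) and the arcuate median −0.29 (3 of 12 higher, 6 at such a p). Of the arcuate list 2 genes were called lower by edgeR in that pair, against 0.0392% of all genes. They were Agrp (−1.24, edgeR adjusted p = 0.00154) and Npy (−1.31, edgeR adjusted p = 2.36e-05). The paper relates expression of both genes to diet/energy balance, so the arcuate values need not reflect how much arcuate tissue a punch held. From HFD NoDS to HFD → RC the neuron median was 0.05 (5 of 8 higher, 2 at such a p), against 51.3% and 7.93% of all genes. The ventromedial median was 0.23 there (7 of 7 higher, 0 at such a p) and the arcuate median −0.17 (3 of 12 and 6). EdgeR called 2 of the arcuate list there, Npy (0.89) and Cartpt (−0.73), against 0.0705% of all genes. In the interaction the neuron median was −0.23, with 0 of 8 above 0 and 4 at an unadjusted p under 0.05, and edgeR called 0 of the 8 in these comparisons. No marker of these 3 neuron lists was at 0 in any library. The part of arcuate, ventromedial and other neurons in the differences of the tanycyte genes was not tested.

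Genes of the meninges and fibroblasts, cells of the brain surface, had the same order of group means as the sum of the 10 tanycyte genes. In the interaction all 7 tested were above 0, against 49.4% of all genes, with a median of 1.89 and an unadjusted p under 0.05, against 8.84%, and edgeR called 0 of them. Their median log2 fold change was −1.07 from RC NoDS to RC → HFD (0 of 7 higher, 5 at an unadjusted p under 0.05, against 6.51% of all genes) and −0.88 from HFD NoDS to HFD → RC. Summed over the 8 genes, led by Igf2, Dcn and Col1a2, the levels in CPM were 122, 279, 345, 189 and 415 in RC NoDS and 73.7, 499, 218, 329 and 283 in HFD NoDS. They ran from 65.5 over a median of 130.2 to 216 in RC → HFD and were 208, 159, 47.8, 65.2 and 272 in HFD → RC. Lum had no read in 2 libraries and Ogn in 1. Within groups their median r with *Rax* was 0.01, and their part in the differences of the tanycyte genes was not tested.

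The remaining cell types bear on the 10 genes as other contents of the punch. Over 12 astrocyte genes r with *Rax* ran from −0.50 to 0.81, the highest being Sox9, named above among the genes closest to *Rax*. Median r with *Rax* was −0.28 over these 12 genes, 0.00 over 4 paraventricular neuron genes, −0.25 over 5 lateral hypothalamus neuron genes and 0.06 over 6 pituitary genes. It was 0.34 over 2 choroid plexus genes, −0.18 over 8 oligodendrocyte genes, 0.03 over 8 microglia genes and −0.32 over 6 genes of the lamina terminalis and thalamus. In the interaction the median was −0.20 for the astrocyte list (4 of 12 above 0, 6 at an unadjusted p under 0.05), 0.23 for the paraventricular (3 of 4 above 0, 1 at an unadjusted p under 0.05), −0.65 for the lateral (1 of 5 and 2) and −0.79 for the pituitary list (2 of 6 and 2). It was 0.14 for the choroid plexus (2 of 2 and 0), −0.45 for the oligodendrocyte (0 of 8 and 1), 0.065 for the microglia (5 of 8 and 0) and −0.13 for the lamina terminalis and thalamus list (2 of 6 and 2). Of all genes 49.4% were above 0 there and 8.84% had an unadjusted p under 0.05. From RC NoDS to RC → HFD the lateral list had a median of 0.90 (4 of 5 higher, 4 at an unadjusted p under 0.05), the pituitary list 0.47 (3 of 6 and 1), the oligodendrocyte list 0.19 (8 of 8 and 0) and the astrocyte list 0.049 (9 of 12 and 1), against 49.8% and 6.51% of all genes. The paraventricular median was −0.075 (1 of 4 and 1), the choroid plexus −0.06 (1 of 2 and 0), the microglia 0.026 (5 of 8 and 0) and the lamina terminalis and thalamus −0.00028 (3 of 6 and 2). The oligodendrocyte list rose more between other groups. From RC NoDS to HFD → RC its median was 0.82 (8 of 8 higher, 8 at an unadjusted p under 0.05). EdgeR called 3 there. From RC NoDS to HFD NoDS it was 0.57 (8 of 8 and 8). From RC → HFD to HFD → RC it was 0.59 (8 of 8 and 7). Such a p was held by 8.10%, 7.41% and 5.35% of all genes in turn. The oligodendrocyte median was 0.36 from RC → HFD to HFD NoDS and 0.26 from HFD NoDS to HFD → RC (8 of 8 and 0 in each). The part of these cell type lists in the differences of the tanycyte genes was not tested. EdgeR called S100b and Gfap of the astrocyte list, Agrp, Npy and Cartpt of the arcuate list, Trh of the paraventricular list and Hcrt of the lateral list in at least 1 comparison. It also called genes of the oligodendrocyte list, among them Mobp and Mbp, and 0 genes of the pituitary (Cga, Gh and Pitx1 most abundant), choroid plexus (Clic6, Kl and Ttr), microglia (Csf1r, C1qb and C1qa) and lamina terminalis and thalamus lists (Calb2, Slc17a6 and Rora). Defining pituitary and choroid plexus markers were at 0 in some libraries, Prl in 11, Gh in 7 and Otx2 in 11.

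Because *Rax* and *Lhx2* encode homeodomain proteins, promoters were searched for TAATTA, the core that many homeodomain proteins bind, which reads the same on both strands. RefSeq promoters (GRCm38.p6, 250 bases before to 50 after a start) of 8 of the 10 genes were searched, without *Rax* and *Crym*. None of their 9 promoters held these letters, against 5.29% of 32851 promoters and 6.12% of 27025 genes, which says only that the letters are not in these windows. The promoters of *Gpr50* (chrX:71663417-71663716, plus strand) and *Lhx2* (chr2:38339031-38339330 and chr2:38351058-38351357, plus strand) are shown in lower case, as genes with r of 0.72 with *Rax* that did not pass adjustment, with no letters in capitals because none matched. The *Lhx2* windows are rich in G and C, 74.7% and 69.3% of bases, and that of *Gpr50* holds 57.3%.
Gpr50 promoter: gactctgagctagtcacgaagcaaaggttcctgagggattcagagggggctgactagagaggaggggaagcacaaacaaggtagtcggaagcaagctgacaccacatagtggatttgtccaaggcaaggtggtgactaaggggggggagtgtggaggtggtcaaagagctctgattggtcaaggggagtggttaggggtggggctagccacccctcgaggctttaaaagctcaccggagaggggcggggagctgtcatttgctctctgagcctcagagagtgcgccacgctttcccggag
Lhx2 upstream promoter: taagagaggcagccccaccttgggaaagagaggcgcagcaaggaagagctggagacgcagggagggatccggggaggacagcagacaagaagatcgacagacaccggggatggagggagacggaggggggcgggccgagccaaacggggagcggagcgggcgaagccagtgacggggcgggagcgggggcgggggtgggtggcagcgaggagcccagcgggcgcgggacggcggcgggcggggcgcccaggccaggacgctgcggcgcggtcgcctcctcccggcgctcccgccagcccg
Lhx2 downstream promoter: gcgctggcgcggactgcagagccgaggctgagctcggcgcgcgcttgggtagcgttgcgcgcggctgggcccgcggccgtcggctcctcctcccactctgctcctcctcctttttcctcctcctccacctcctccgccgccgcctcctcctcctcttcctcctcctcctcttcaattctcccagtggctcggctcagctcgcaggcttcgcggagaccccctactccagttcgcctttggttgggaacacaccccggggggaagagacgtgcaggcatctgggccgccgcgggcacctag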

How the data were processed

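The authors merged sequencing runs with Picard 2.7.1, aligned the single-end reads to mm9 with STAR 2.5.1b and re-sampled every library with PORT, and the deposited values are counts of reads per gene, used unchanged. Genes averaging at least 50 reads (High Filter) were fitted with edgeR 4.0.16 (TMM, quasi-likelihood F-test, 1 mean per group, limma 3.58.1, R 4.3.3), with p-values adjusted by Benjamini-Hochberg over all 12768 genes and a threshold of 0.15. No paired analysis was possible because the groups share no replicate number, and the labels give no batch. CPM are reads over the library total times its TMM factor. Correlations used log2(CPM + 1) with group means subtracted and 100000 two-sided permutations within groups (numpy 2.4.6 and scipy 1.17.1 under Python 3.11.15, with pandas 2.3.3; figures by matplotlib 3.10.9). No molecular identifiers were used, reads are therefore not independent molecules, and the spread between libraries was used for every test.

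Named are the 10 tanycyte genes, the 10 genes nearest *Rax*, genes from the 10 nearest the mean of the tanycyte genes, and from 15 other cell type lists genes called or otherwise the 3 most abundant. Members and lists were chosen with earlier results of these data known. Gene positions and exon lengths came from the GENCODE annotation of NCBIM37, promoters from RefSeq. Alternatives were DESeq2 1.42.0, limma-voom, limma-trend, other filters, scalings, pseudocounts and a 0.05 threshold, robust dispersion, only the groups compared, library complexity or *Rax* as covariates, and each library left out. The tests were also run on simulated data, whose spread was not matched to that of the tanycyte genes. Those runs therefore do not show how the tests perform on these 10 genes.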

Additional observations from a re-analysis of the deposited data

Results flagged for a closer look

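In each group the highest and the lowest library were compared with their nearest neighbour (Dixon's test), and chance picks out about 1 in 20 groups. Of the 40 groups of the tanycyte genes, 2 held a library apart. HFD NoDS replicate 20 had 1178 reads of *Gpr50*, and the other libraries of its group 1889 to 2000. HFD → RC replicate 17 had 871 reads of *Nes*, against 391 to 524 in the others.

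Of the 60 groups of the other cell type lists, 5 held a library apart, given in summed CPM. The pituitary genes reached 194 in HFD → RC replicate 13, against 5.09 to 37.5 in the others. For the choroid plexus genes, RC → HFD replicate 12 had 64.6, against 78.7 to 84.0. The microglia genes were at 304 in RC → HFD replicate 8, against 340 to 356. Neuron genes were at 4071 in RC NoDS replicate 3, against 3845 to 3901, and at 4867 in RC → HFD replicate 12, against 4117 to 4343. The latter library also had the fewest reads of 6 tanycyte genes.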

How the results depend on the processing

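EdgeR called 0 of the 10 tanycyte genes in all 10 comparisons, and so did 34 alternatives except these. DESeq2 called 1 in RC → HFD v HFD NoDS, in all 4 groups and in the interaction, and library complexity as a covariate gave 1 in the interaction. With a library left out the interaction gave 0 to 2. The causes were not tested. Of 3021 fold changes of single tanycyte genes under an alternative, 2987 moved by less than their standard error without a call, 27 moved by more and 7 were called. The sign differed from the reported one in 94, none of them called in either fit. The 27 came from library complexity (13), *Rax* as a covariate (10) and HFD → RC replicates 17 (3) and 14 (1) left out. The median r with *Rax* (0.57) ran from 0.50 to 0.64 with a library left out and from 0.54 to 0.63 otherwise.

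Totals over all genes moved more. In the interaction edgeR called 4 genes, with 0 to 123 when a library was left out and 0 to 116 under the other settings. In RC NoDS v HFD → RC the total was 36, with 1 to 203 and 1 to 147. *Adm*, with 26 to 107 reads, has the least precise counts.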
